A study of Mus musculus with 6 samples.

Results

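The let-7 family with its close relative miR-98 was followed through the maturation zones of the mouse growth plate. Members were the 10 mouse names mmu-let-7a, mmu-let-7b, mmu-let-7c, mmu-let-7d, mmu-let-7e, mmu-let-7f, mmu-let-7g, mmu-let-7g*, mmu-let-7i and mmu-miR-98 (written below without the species prefix), taken by their exact miRNA name in the scanner files, out of 690 mouse miRNAs on the array. All 10 were on the array, and each was well above background, by the scanner software's flag, on all 6 arrays.

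The RNA came from microdissected cartilage of femoral growth plates, taken from C57BL/6 mice at 12 days of age, with 2 one-colour Agilent miRNA arrays for the proliferative, 2 for the prehypertrophic and 2 for the hypertrophic zone. No genotype or treatment differed between the groups, which all carried the same strain and age. Each array received 100 ng of total RNA from a pool of 5 growth plates, and the study had 2 independent hybridizations per zone. The labels do not say whether pools of different zones shared animals, and p-values measure only the spread between these 6 arrays. No spot was saturated, and on each array 24.17% to 27.86% of the miRNA spots exceeded background by the same flag.

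let-7 miRNAs are short RNAs that bind messenger RNAs through their seed, the bases near the 5′ end, and lower the output of those messages. In mammals they accumulate as cells differentiate, are held back by the RNA-binding protein LIN28, and repress growth and cell-cycle genes such as Hmga2 and Myc. In mice, let-7 miRNAs and miR-140 have been studied together as regulators of growth plate chondrocytes. In the growth plate chondrocytes divide in the proliferative zone, leave the cell cycle in the prehypertrophic zone and enlarge in the hypertrophic zone. The zones were compared to see how miRNA levels differ along that path.

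The mature sequences are shown first because the members differ by very few bases, which limits how far any probe can tell them apart. They were taken from RefSeq on build GRCm38.p6, where all 10 members matched, and run 5′ to 3′ with the seed (bases 2 to 8) in capitals.
let-7a: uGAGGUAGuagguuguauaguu
let-7b: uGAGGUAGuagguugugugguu
let-7c: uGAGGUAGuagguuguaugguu
let-7d: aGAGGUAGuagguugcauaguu
let-7e: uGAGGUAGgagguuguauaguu
let-7f: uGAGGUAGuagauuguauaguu
let-7g: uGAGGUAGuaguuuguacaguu
let-7i: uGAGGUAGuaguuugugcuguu
miR-98: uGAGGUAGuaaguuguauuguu
let-7g*: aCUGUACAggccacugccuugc
The 9 guide strands share the seed GAGGUAG and are identical at 14 of their 22 bases. Any pair of them differs at 1 to 6 bases. Set against let-7a, with positions counted from 1 at the 5′ end, let-7c differs by A19G, let-7e by U9G and let-7f by G12A. let-7b differs by A17G and A19G, let-7d by U1A and U16C, and miR-98 by G11A and A19U. let-7g carries G12U and U18C, and let-7i carries those same changes with A17G and A19U. Signal from a near-identical member can therefore reach another member's probe, and the array cannot say how much. let-7g* is the passenger strand of the let-7g hairpin, with the unrelated seed CUGUACA, and is counted as a member by name only.

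The guide strands come from hairpins scattered over the genome. On GRCm38.p6 the let-7e hairpin lies at chr17:17830352-17830444 on the plus strand, within 10 kb of that of miR-125a. The let-7c-2 hairpin (chr15:85706603-85706697) and the let-7b hairpin (chr15:85707319-85707403) lie beside each other on the plus strand. let-7a-1, let-7f-1 and let-7d form a cluster on the minus strand of chromosome 13, and let-7f-2 and miR-98 one on the X chromosome. let-7c-1 neighbours miR-99a, and let-7a-2 neighbours miR-100. The hairpins of let-7g (chr9:106178840-106178927) and let-7i (chr10:122985640-122985724) had no other hairpin of the RefSeq table within 10 kb on their strand.

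Levels below are log2 scaled signals: the spots of a probe were averaged, divided by the array's 75th percentile over probes well above background on all arrays, and floored at 3.66. Each miRNA is represented by its brightest probe, and levels of different miRNAs are not compared, since probes differ in brightness.

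Signals of the guide strands were lower in the hypertrophic than in the proliferative zone, most of all for let-7e and let-7b, while the passenger strand let-7g* stood apart. Of the 10 members, 4 fell past the limma threshold of adjusted p = 0.05 (let-7e, let-7b, let-7c and let-7a) and none rose. Among all 226 tested miRNAs, 8.85% were called lower and 5.75% higher. The median log2 fold change was -0.86 over the 10 members and 0 over all tested miRNAs. In these bulk samples, fewer cells that hold a miRNA and less of it per cell cannot be told apart.

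mmu-let-7e had log2 signals of 8.61 and 8.05 on the proliferative, 7.46 and 7.50 on the prehypertrophic, and 6.96 and 6.92 on the hypertrophic arrays. The zones did not overlap, and the zone means came in that order. The hypertrophic mean of 6.94 ± 0.03 stood against a proliferative mean of 8.33 ± 0.39 (SD, n = 2 each), a 2.62-fold lower signal (log2 fold change -1.39, SE 0.27, 95% interval -1.99 to -0.79, limma adjusted p = 0.00628). In unscaled processed signal, let-7e read 125.7 and 159.7 on the hypertrophic arrays, against 353.9 and 199.3 on the proliferative arrays.

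mmu-let-7b had log2 signals of 11.55 and 11.30 on the proliferative, 10.87 and 10.89 on the prehypertrophic, and 10.29 and 10.42 on the hypertrophic arrays. Its zones did not overlap either. The hypertrophic signal was 2.10-fold lower than the proliferative (log2 fold change -1.07, SE 0.25, adjusted p = 0.0177).

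mmu-let-7c read 11.60 and 11.26 on the proliferative, 11.04 and 11.08 on the prehypertrophic, and 10.45 and 10.62 on the hypertrophic arrays. Its hypertrophic signal was 1.86-fold below the proliferative one (log2 fold change -0.90, SE 0.26, adjusted p = 0.0393). mmu-let-7a read 10.92 and 10.54 on the proliferative, 10.35 and 10.42 on the prehypertrophic, and 9.76 and 9.96 on the hypertrophic arrays. Its hypertrophic signal was 1.82-fold below (log2 fold change -0.87, SE 0.26, adjusted p = 0.0474), close to the threshold. For both, each hypertrophic array lay below both prehypertrophic arrays, and these lay below both proliferative arrays. The separation of either zone from the proliferative arrays appeared only after scaling. In unscaled processed signal, let-7c read 1415 and 2074 on the hypertrophic and 2829 and 1842 on the proliferative arrays, which overlap. let-7a, at 879.6 and 1313 against 1755 and 1122, overlapped too. let-7b, at 1268 and 1806 against 2724 and 1900, did not, but its unscaled prehypertrophic signals of 1910 and 2045 overlapped the proliferative ones.

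**Figure D1:**
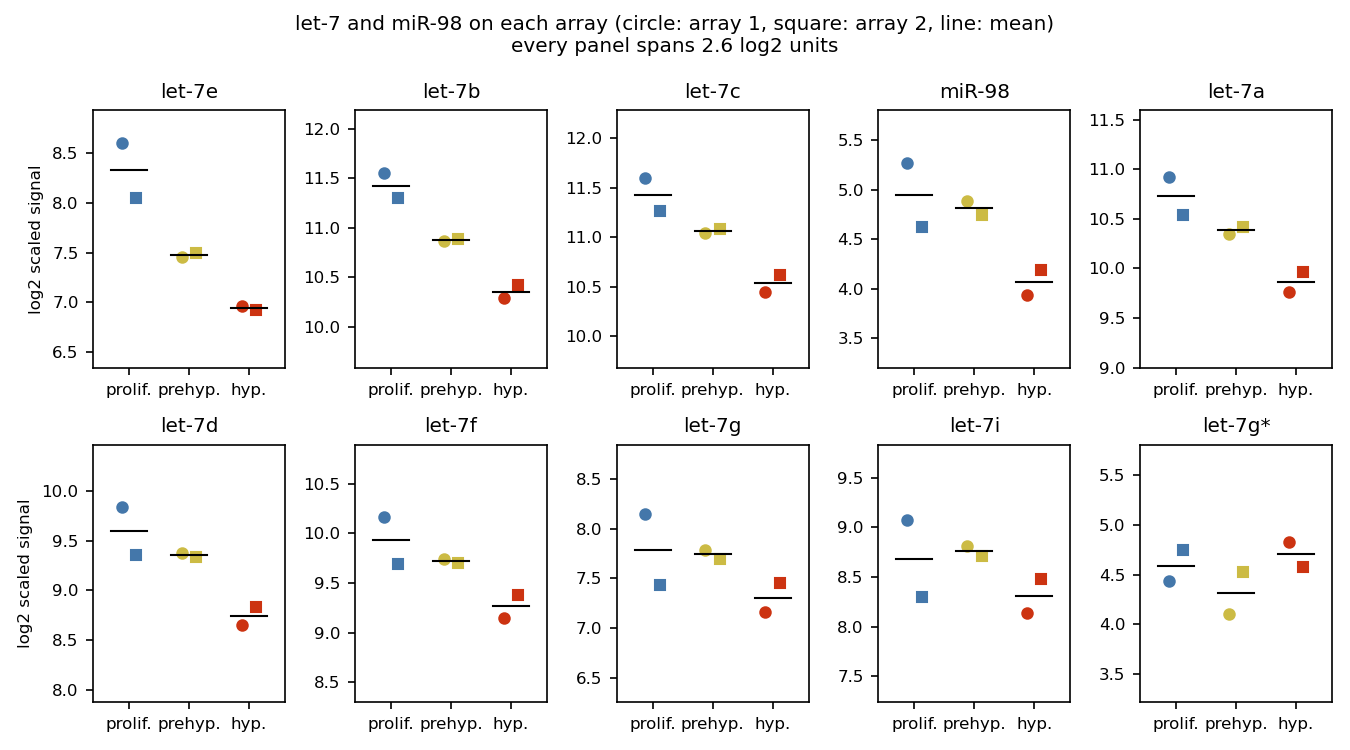
Log2 scaled signal of each member on each of the 6 arrays, with a panel per miRNA in order of the hypertrophic against proliferative fold change and bars at the zone means (n = 2). let-7e, at 6.96 and 6.92 on the hypertrophic and 8.61 and 8.05 on the proliferative arrays, shows the widest gap, and let-7g* shows none of the decline of the guide strands.

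miR-98, let-7d and let-7f did not pass the threshold, although the fall of miR-98 was slightly larger than that of let-7a (-0.87). miR-98, which lies beside let-7f-2, read 5.27 and 4.62 on the proliferative, 4.89 and 4.74 on the prehypertrophic, and 3.94 and 4.19 on the hypertrophic arrays (hypertrophic against proliferative log2 fold change -0.88, SE 0.29, adjusted p = 0.0591). let-7d read 9.84 and 9.36 on the proliferative, 9.38 and 9.34 on the prehypertrophic, and 8.65 and 8.83 on the hypertrophic arrays (-0.86, SE 0.27, adjusted p = 0.0534). let-7f read 10.17 and 9.69 on the proliferative, 9.74 and 9.70 on the prehypertrophic, and 9.15 and 9.38 on the hypertrophic arrays (-0.67, SE 0.27, adjusted p = 0.137). In these 3 miRNAs both hypertrophic arrays lay below the other 4 in scaled signal, while the prehypertrophic and proliferative arrays overlapped. In unscaled processed signal the hypertrophic arrays of all 3 overlapped the proliferative ones. let-7d read 406 and 600.3 on the hypertrophic against 830.5 and 495.6 on the proliferative arrays. let-7f read 575.4 and 877.9 against 1049 and 623.8, and miR-98 15.48 and 24.11 against 35.11 and 18.51.

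let-7g and let-7i, the pair that carries G12U and U18C, had the smallest log2 fold changes among the guide strands. let-7g read 8.15 and 7.43 on the proliferative, 7.79 and 7.70 on the prehypertrophic, and 7.16 and 7.45 on the hypertrophic arrays. let-7i read 9.07 and 8.30 on the proliferative, 8.81 and 8.71 on the prehypertrophic, and 8.14 and 8.48 on the hypertrophic arrays. Their hypertrophic and proliferative arrays overlapped, since the second proliferative array lay between the hypertrophic ones. The hypertrophic against proliferative log2 fold change was -0.49 for let-7g (95% interval -1.14 to 0.17, adjusted p = 0.379) and -0.38 for let-7i (95% interval -1.05 to 0.29, adjusted p = 0.538).

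let-7g*, the passenger strand, read 4.43 and 4.75 on the proliferative, 4.10 and 4.53 on the prehypertrophic, and 4.83 and 4.58 on the hypertrophic arrays. The hypertrophic and proliferative arrays overlapped (log2 fold change 0.12, SE 0.28, adjusted p = 0.857). Of its 4 probes only the brightest was well above background, so its level rests on that probe. Across the 6 arrays its signal correlated at r = -0.489 with the mean of the guide strands, whereas each guide strand correlated at 0.792 (let-7i) to 0.995 (let-7d and let-7f) with the mean of the others. These correlations describe 6 arrays that share a scaling, and near-identical sequences.

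Counting arrays by scaled signal, 7 of the 10 members had both hypertrophic arrays below both proliferative ones, as did 27% of all tested miRNAs. For let-7a, let-7c, let-7d, let-7f and miR-98 that separation was absent in unscaled signal. Of the 10 members 0 had them above, as 19.9% of all did. On every guide strand the first proliferative array was the highest of the 6. Without it, with the remaining proliferative array assumed to vary like the other zones, 1 of the 10 members was called, let-7e (log2 fold change -1.11, adjusted p = 0.0449), and the members' median was -0.59, with 1.33% of all miRNAs called lower. Without the second proliferative array 7 were called, with 14.6% of all miRNAs. Without the first or the second hypertrophic array 0 were called, with medians of -0.76 and -0.96, and 0% of all miRNAs were called lower. Without either prehypertrophic array 2 were called, let-7b and let-7e, with 7.08% of all miRNAs.

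**Figure D2:**
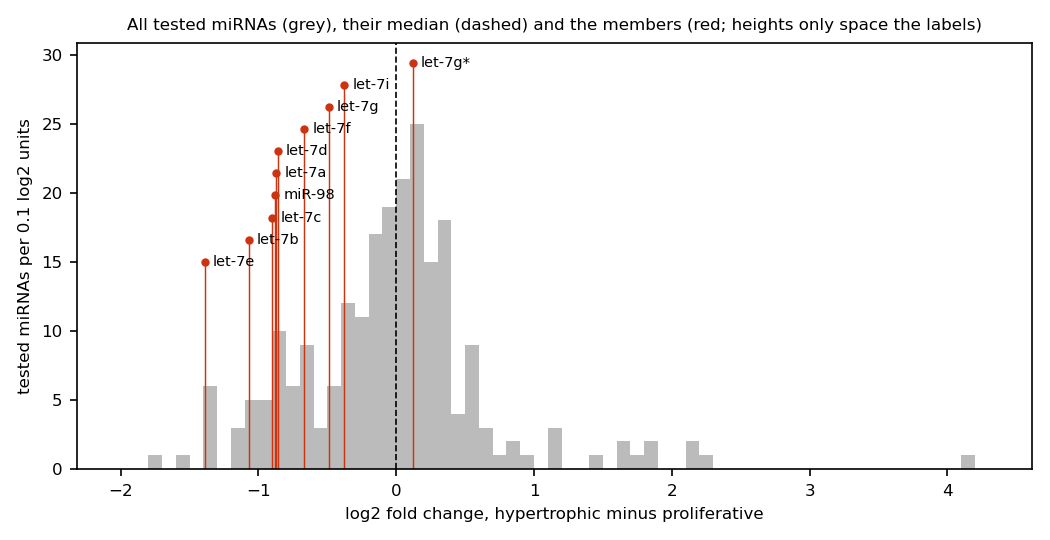
Histogram of the log2 fold change, hypertrophic minus proliferative, over the 226 tested miRNAs in bins of 0.1, with the 10 members marked in red and the median of all miRNAs dashed. The guide strands lie between -1.39 and -0.38, left of the overall median of 0, and let-7g* lies at 0.12.

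Each guide strand has a second, dimmer probe, which gives another reading of the same RNA. All 18 probes of the 9 guide strands had lower means in the hypertrophic than in the proliferative zone. The brightest probes gave log2 differences of -1.39 to -0.38 and the dimmer ones -1.26 to -0.32. For 8 of the guide strands the 2 probes differed by at most 0.13 log2 units. For miR-98 they differed by 0.42, its dimmer probe being well above background on 4 of 6 arrays. In a fit over 446 probes, 4 of the 18 were called lower, both for let-7e (adjusted p = 0.0108 and 0.0216) and both for let-7b (0.0252 and 0.0429), where 4.04% of all probes were. The 10 spots of a probe on an array had a coefficient of variation of 1.74% to 19.4% for the 17 probes well above background on all arrays.

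Between neighbouring zones no member passed in either step. The steps were smaller than the difference between the outer zones for most members. Exceptions were let-7i, at -0.45 in the hypertrophic against prehypertrophic and -0.38 in the hypertrophic against proliferative comparison, and let-7g*, at -0.28 and 0.39 in the 2 steps and 0.12 between the outer zones. From the proliferative to the prehypertrophic zone the largest log2 fold change was that of let-7e (prehypertrophic against proliferative -0.84, SE 0.27, adjusted p = 0.155), followed by let-7b (-0.54, SE 0.25, adjusted p = 0.40). The other guide strands lay between -0.37 for let-7c and 0.07 for let-7i. The prehypertrophic arrays of let-7a, let-7b, let-7c and let-7e lay below both proliferative arrays, 4 of 10 members against 24.3% of all tested miRNAs. limma called 0% of all 226 miRNAs lower and 2.21% higher at this step. At an unadjusted p under 0.05 it gave 1 member, let-7e, as lower. Among all 226 miRNAs it then gave 13 (5.75%) lower and 16 higher. The members' median was -0.26 and that of all miRNAs -0.14.

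From the prehypertrophic to the hypertrophic zone the guide strands moved by more similar amounts, with log2 fold changes of -0.75 for miR-98 to -0.44 for let-7g. The value of miR-98 is uncertain, since its hypertrophic signals of 3.94 and 4.19 lay near the floor of 3.66. Its dimmer probe, also near the floor there, gave -0.41. In scaled signal all 9 guide strands had both hypertrophic arrays below both prehypertrophic arrays, and let-7g* had them above. The share without overlap among all tested miRNAs was 32.7% lower and 34.1% higher. limma again called 0% of all miRNAs lower and called 1.33% higher. At an unadjusted p under 0.05 it gave 2 members as lower, miR-98 and let-7d (adjusted p = 0.255 and 0.275). Among all 226 miRNAs it then gave 15 (6.64%) lower and 19 higher. The members' median was -0.52 and that of all miRNAs -0.03. The zones of this step lay in different rows of the slide, so that row and zone cannot be told apart except through the proliferative pair.

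**Figure D3:**
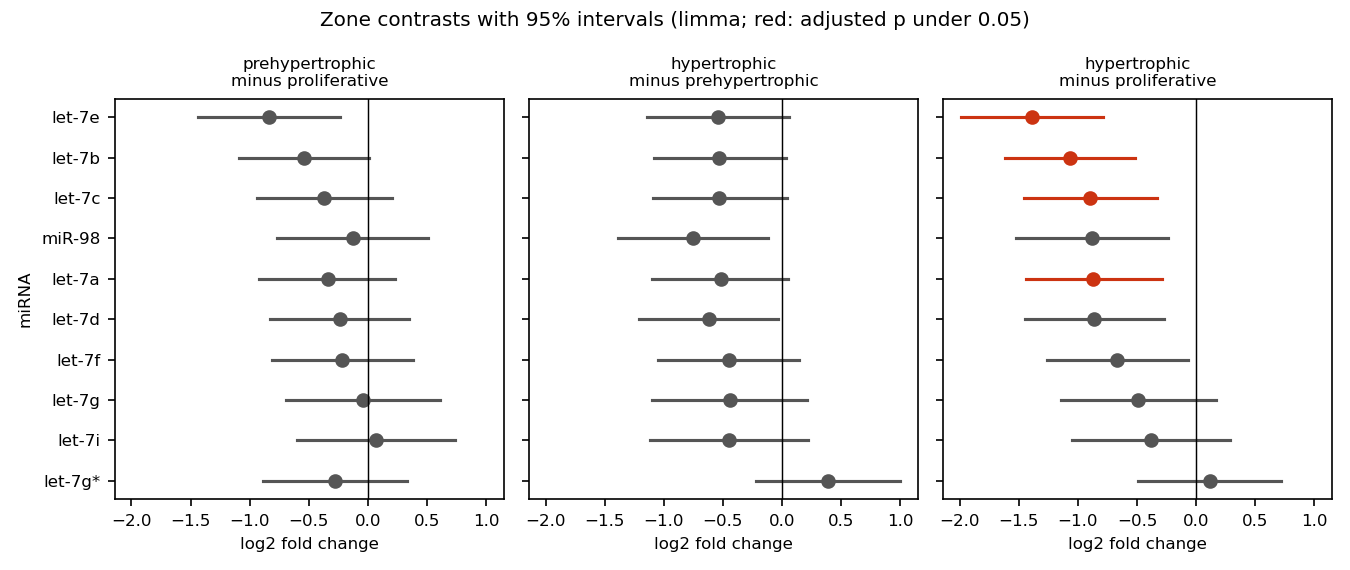
Log2 fold changes of the 10 members with 95% intervals from limma in the prehypertrophic minus proliferative, hypertrophic minus prehypertrophic and hypertrophic minus proliferative comparisons. Only the last has members past the threshold, shown in red, with let-7e at -1.39, let-7b at -1.07, let-7c at -0.90 and let-7a at -0.87.

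Whether some members fell more than others was tested on ratios within an array, in which the array's scaling cancels. Each miRNA was set against the mean of the other guide strands on the same array. let-7e stood at -1.48 and -1.75 on the hypertrophic arrays, against -0.97 and -1.02 on the proliferative arrays, a further decline of -0.62 log2 units (SE 0.22, 95% interval -1.16 to -0.09, adjusted p = 0.0847). let-7i went the other way, at -0.16 and 0.01 on the hypertrophic and -0.44 and -0.73 on the proliferative arrays (0.51, SE 0.22, 95% interval -0.05 to 1.06, adjusted p = 0.12). let-7g differed by 0.39 (95% interval -0.14 to 0.92, adjusted p = 0.173) and let-7b by -0.27 (95% interval -0.81 to 0.28, adjusted p = 0.341).

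In this test of unequal change limma called 0 of the 10 members. At an unadjusted p under 0.05 it gave let-7e, lower, and let-7g*, higher (0.95, SE 0.37, adjusted p = 0.0998), beside 3 lower and 103 higher among all 226 miRNAs. After adjustment 0.442% of all miRNAs were called lower and 14.6% higher than the guide strands. Over 14 other settings, some of which repeat the same fit, let-7e was called in 2 and let-7g* in 4. let-7a, let-7c, let-7d and miR-98 differed from the rest of the family by -0.07 to -0.03, with 95% intervals that lie between -0.59 and 0.48, and let-7f by 0.19. In order of the size of fall, given as a description, let-7e came first and let-7i last among the guide strands by the brightest and by the dimmer probes.

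**Figure D4:**
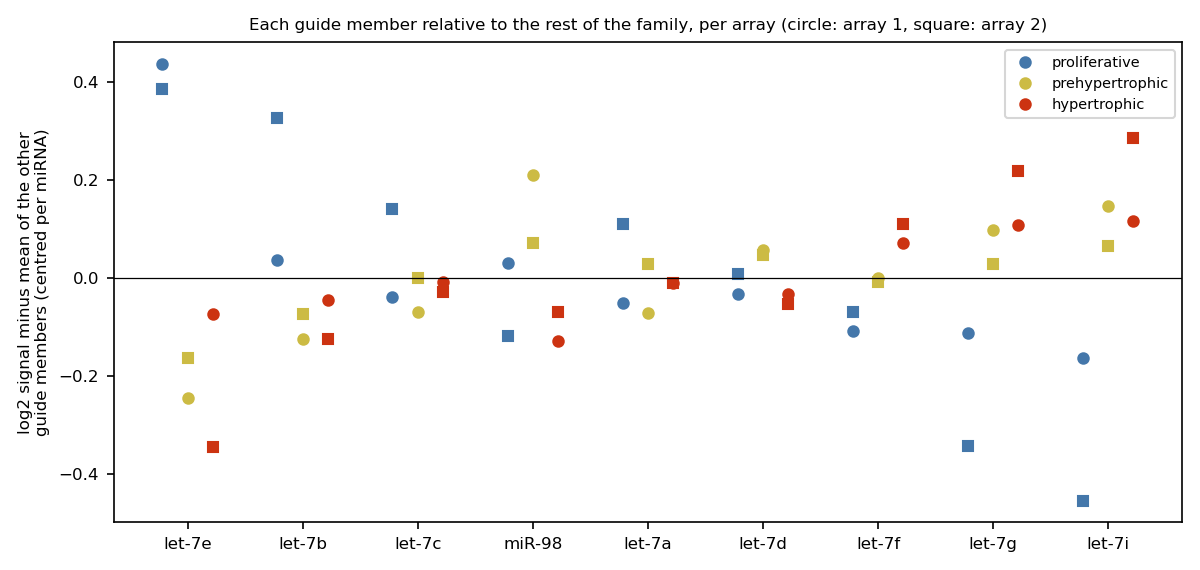
Log2 signal of each guide strand minus the mean of the other 8 on the same array, centred per miRNA, for the 6 arrays coloured by zone. let-7e lies lower and let-7g and let-7i lie higher on the hypertrophic than on the proliferative arrays. let-7a, let-7c and let-7d change little relative to the other guide strands.

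The arrays shared a slide. Both hypertrophic arrays and the first proliferative array lay in row 1, and both prehypertrophic arrays and the second proliferative array in row 2. Within row 1 the hypertrophic mean minus the proliferative array was -1.67 for let-7e, -1.19 for let-7b, -1.07 for let-7c and -1.05 for let-7a. The sample titles carry numbers that form 2 runs, 13 to 15 and 16 to 18, with each zone once in a run. Within the runs, hypertrophic minus proliferative was -1.69 and -1.09 for let-7e, -1.13 and -1.01 for let-7b, -0.99 and -0.81 for let-7c, and -0.96 and -0.78 for let-7a. It was negative in both runs for every guide strand, down to -0.59 and -0.17 for let-7i.

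miRNAs cut from the same primary transcripts as let-7 members were read beside them. Of 10 such names 9 were on the array and 7 were tested, of which 2 fell and 0 rose between the hypertrophic and proliferative zones, beside 8.85% and 5.75% of all tested miRNAs. Both belong to the let-7e transcript: miR-125a-5p (log2 fold change -1.18, SE 0.26, adjusted p = 0.0118) and miR-99b (-1.03, SE 0.27, adjusted p = 0.0298). miR-125a-5p read 5.46 on average in the hypertrophic zone, against 6.64 in the proliferative zone. miR-99b read 3.77 and 3.96 on the hypertrophic arrays, close to the floor of 3.66, against 5.11 and 4.68 on the proliferative arrays. The other strands of the same hairpins, miR-125a-3p (0.10, adjusted p = 0.88) and miR-99b* (0.08, adjusted p = 0.924), did not pass.

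The partners of other members did not pass between these zones either. miR-100, the neighbour of let-7a-2, differed by -0.69 on the log2 scale (adjusted p = 0.152), and miR-125b-5p by -0.24 (adjusted p = 0.68). miR-99a, the neighbour of let-7c-1, differed by 0.41 (adjusted p = 0.464), and set against the guide strands on the same array it was higher by 1.24 log2 units (SE 0.21, adjusted p = 0.0169). let-7c is also made from a second locus beside let-7b, and its probes cannot separate the 2 sources.

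Other passenger strands of the family were near or below detection. Of 9 names listed, 6 were on the array (let-7a*, let-7b*, let-7c-1*, let-7d*, let-7f* and let-7i*), and each was well above background on 0 arrays. Among miRNAs of related seed, miR-196a (log2 fold change -1.01, SE 0.27, adjusted p = 0.0316) fell, while miR-196b (-0.66, adjusted p = 0.152) and miR-202-3p (-0.79, SE 0.44, adjusted p = 0.31) did not pass. Among RefSeq's mature mouse names, 11 carry the let-7 seed, the other 2 being let-7k and miR-1961. miR-1961 was well above background on 0 arrays.

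The miRNAs outside the family whose profile over the 6 arrays was most like the mean of the guide strands were miR-103 (Pearson r = 0.994), miR-140* (0.992), miR-130a (0.989), miR-196a (0.985) and miR-107 (0.983). miR-140* is a strand of the chondrocyte miRNA miR-140. Between the hypertrophic and proliferative zones their log2 fold changes were -1.02, -0.98, -1.06, -1.01 and -0.85. These were selected for likeness among all tested miRNAs on arrays that share a scaling, so the values describe only these arrays.

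Some of the cell type markers also differed between the zones. The 7 blood miRNAs summed to 26.8 to 41.1 scaled units in the proliferative, 45.2 to 47.3 in the prehypertrophic and 262 to 290 in the hypertrophic zone, in that last zone mostly through the erythroid miR-451. miR-223 was higher in the hypertrophic than in the proliferative zone without passing (log2 fold change 0.88, limma adjusted p = 0.0591). miR-486 did not rise, with means of 3.92 in the proliferative and 3.84 in the hypertrophic zone. It was above background on 1 array of each of these zones. miR-144, miR-142-3p, miR-142-5p and miR-150 stayed under the background flag on every array. The 2 endothelial miRNAs summed to 0 in the proliferative and prehypertrophic zones and to 34.7 to 47.2 in the hypertrophic zone, through miR-126-3p, with miR-126-5p on no array above background. Sums of the 6 chondrocyte miRNAs, among them miR-140, were 6480 to 10400 in the proliferative and 6840 to 6940 in the prehypertrophic zone. In the hypertrophic zone they were 3920 to 4920. The 10 let-7 and miR-98 members summed to 8740 to 11400, 7710 to 7770 and 5080 to 5750 in the same zones. Bright probes weigh most in such sums. Of the 5 chondrocyte miRNAs tested, 4 were lower in the hypertrophic than in the proliferative zone, as were 112 of all 226. Only miR-675-3p passed (log2 fold change -0.86, limma adjusted p = 0.0393), beside 8.85% of all miRNAs called lower. Its hypertrophic mean lay at the floor of 3.66, with 0 arrays above background. miR-455* was higher (log2 fold change 0.37, limma adjusted p = 0.488). miR-675-5p was above background on no array. None of the 4 skeletal muscle miRNAs, nor the liver miRNA miR-122, was above background on any array. Of the 2 nerve miRNAs, miR-124 was above background on 1 array of each zone and miR-9 on none. Of the 3 epithelial miRNAs only miR-205 entered the fit (hypertrophic against proliferative log2 fold change 0.18, adjusted p = 0.797), and miR-200c and miR-203 were above background on no array. The part of these cell types in the let-7 values was not tested.

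The calls depended on the processing. The call of let-7e held in 12 of 19 other settings (log2 fold change -1.67 to -0.91), that of let-7b in 11 (-1.19 to -0.59), that of let-7c in 5 (-1.07 to -0.41) and that of let-7a in 4 (-1.05 to -0.38). let-7d and miR-98, which just missed, were called in 4 settings each. These settings are not all separate checks. Between the hypertrophic and proliferative zones, leaving out either prehypertrophic array repeats the fit of those zones alone. The row block repeats the fit without the second proliferative array. Without scaling between arrays the members' median was -0.38 and that of all miRNAs 0.45. Set against the median of all miRNAs, the members lay at -0.83 without scaling and at -0.86 as reported. One divisor per array shifts all miRNAs alike, so these values must be close, apart from the floor. Their closeness is therefore no check on the fall.

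**Figure D5:**
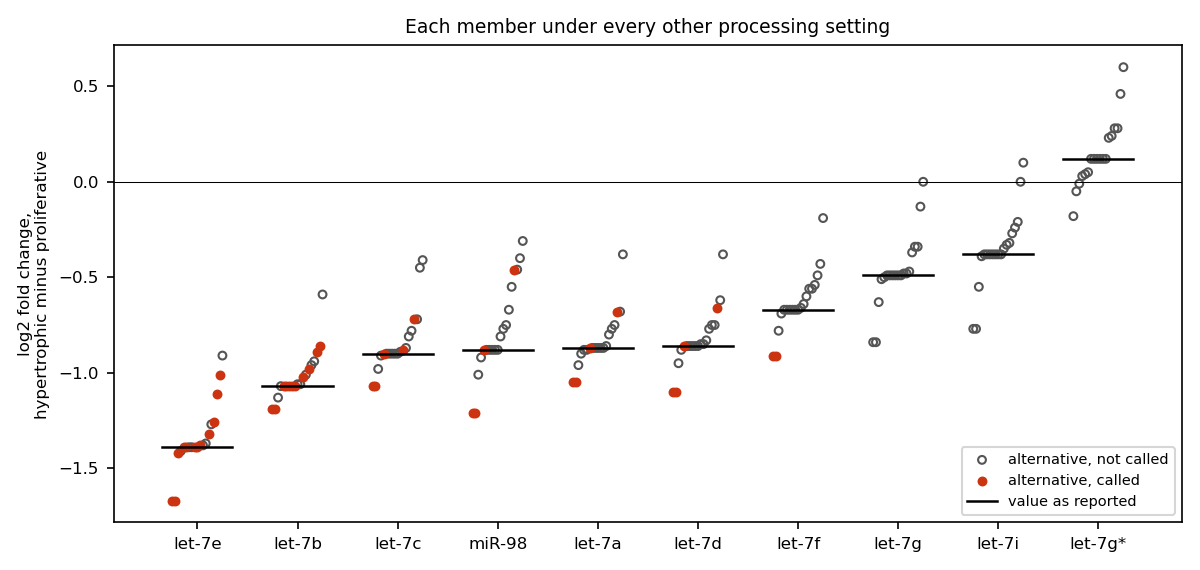
Log2 fold change, hypertrophic minus proliferative, of each member as reported (bar) and under each of the other settings (points, filled where limma's adjusted p was under 0.05). let-7e stays between -1.67 and -0.91, while let-7i reaches 0.10 and let-7g* spreads over both signs.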

How the data were processed

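The authors ran Feature Extraction 10.7.3.1 on their scans, per the file headers, and the deposited intensity is a background-subtracted processed signal per spot. Per the series' design text, the authors used GeneSpring. The authors also deposited a log2 table, which matched each miRNA's total signal on the log2 scale (signals under 1 set to 1) minus a constant per array, to within 1.1e-06. Its column medians were -4.399, -4.254, -4.46, -4.455, -4.689 and -4.943, and it served as an alternative.

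From 13800 miRNA spots per array (1928 probes), 384 to 515 outlier spots were left out. Probe means were scaled to the 75th percentile over the 342 probes (17.7%) well above background on all arrays, floored at 12.66 units, and the brightest probe taken per miRNA. The 226 miRNAs with both arrays of at least 1 zone well above background entered a limma fit (version 3.58.1, R version 4.3.3) on all 6 arrays (prior degrees of freedom 7.83), with Benjamini-Hochberg adjustment over all 226. The fit was tested on simulated data. All 10 members passed the filter in every zone. Sequences are RefSeq's. The text names all members, fixed lists of passenger strands, transcript partners, related seeds and cell type markers, and the 5 most similar miRNAs. miR-1961 and let-7k were added by seed. Members and lists were chosen with earlier results of these data known. Normexp was run on median signals, since the files hold no mean signal. The number of arrays limits the precision.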

Additional observations from a re-analysis of the deposited data

How the results depend on the processing

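Between the hypertrophic and proliferative zones the number of members called, 4 as reported, was 0 with the 75th percentile of all probes, with median scaling, without scaling and without a filter on dim miRNAs. It was 1 with 2 times the floor and with the authors' deposited log2 table, 2 with quantile normalization, with the 2 zones fitted alone and with the dimmer probes, and 7 with the slide row as a block. Calls over all miRNAs moved with them: the share called lower, 8.85% as reported, was 0.442% with median scaling and likewise with the 75th percentile of all probes, 0% without scaling and without a filter, 1.33% with 2 times the floor, 3.1% in the authors' table, 3.54% with quantile normalization, 7.08% with the 2 zones alone, 3.67% of probes with the dimmer probes and 14.6% with the row block. Leaving out each array in turn gave 0 to 7 members and 0% to 14.6% of all miRNAs. The members' median was -0.65 with quantile normalization, -0.38 without scaling, -0.57 with normexp and -1.06 with the slide row as a block, and -1.06 to -0.59 when arrays were left out. The prehypertrophic against proliferative median was 0.08 without scaling, -0.02 in the authors' table, and -0.47 to -0.08 when arrays were left out. The hypertrophic against prehypertrophic median was -0.74 in the authors' table and -1.02 with the slide row as a block. Members departing from the rest of the family numbered 1 with 2 times the floor (let-7e, downward). In that setting 1.33% of all miRNAs departed downward and 39.8% upward. The number was also 1 without a filter and with the slide row as a block (let-7g*, where 86.4% and 65.9% of all miRNAs departed upward).

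No label says that the runs of title numbers pair the arrays, although differences between runs correlated across miRNAs at 0.591, 0.731 and 0.289 between zones. With the run as a replicate block 6 members and 13.7% of all miRNAs were called lower. In that fit 2 members departed from the family. let-7e did so downward, as 1.33% of all miRNAs did, and let-7g* upward, as 64.2% did.

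Signs changed only for values that no setting called. Prehypertrophic against proliferative, let-7g was 0.08 with the 75th percentile of all probes, 0.09 with median scaling, 0.30 without scaling, 0.16 in the authors' table, 0.31 with the row block, 0.02 by its dimmer probe and -0.40 to 0.31 when arrays were left out. miR-98 was 0.01 with median scaling, 0.00 with quantile normalization, 0.21 without scaling, 0.09 in the authors' table, 0.20 with the row block, and -0.46 to 0.20 when arrays were left out. let-7c was 0.04 with quantile normalization. let-7d was 0.10 and let-7f 0.12 without scaling, 0.00 and 0.02 with the row block, and -0.47 to 0.00 and -0.46 to 0.02 when arrays were left out. let-7g* was 0.06 without scaling and 0.14 in the authors' table, and let-7i -0.31 to 0.46 when arrays were left out. Hypertrophic against proliferative, let-7i was 0.10 without scaling, and -0.77 to 0.00 when arrays were left out. let-7g* was -0.18 with normexp, and -0.05 to 0.28 when arrays were left out (-0.01 without the first hypertrophic array). The departure of miR-98 was 0.17 with normexp, 0.52 with 2 times the floor (which its hypertrophic signals do not exceed), 0.13 with the mean of all probes, 0.03 in the authors' table and -0.13 to 0.02 when arrays were left out. Those of let-7a and let-7c were 0.04 and 0.02 with the row block, and -0.12 to 0.04 and -0.16 to 0.02 when arrays were left out. The cause of these shifts was not tested. Normexp as planned, on mean signals, was not run, and normexp on median signals and the dimmer probes were chosen after seeing the data.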

Other observations

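The 2 proliferative arrays differed from each other by an amount that varied among the members. The first minus the second was 0.77 log2 units for let-7i, 0.71 for let-7g, 0.65 for miR-98, 0.56 for let-7e, 0.48 for let-7f, 0.47 for let-7d, 0.37 for let-7a, 0.35 for let-7c and 0.25 for let-7b, and -0.33 for let-7g*. The 2 prehypertrophic arrays lay closer for each guide strand, the widest pair being miR-98 at 4.89 and 4.74, while let-7g* read 4.10 and 4.53 there. On average over the guide strands, each centred on its mean, the arrays stood at 0.63 and 0.12 in the proliferative, 0.10 and 0.07 in the prehypertrophic, and -0.55 and -0.36 in the hypertrophic zone. The second proliferative array thus lay beside the prehypertrophic arrays in the family mean.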
